A study of Mus musculus with 8 samples.

Results

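The 10 genes described here carry the core of the unfolded protein response of mouse cells: the sensors Ern1, Eif2ak3 and Atf6, the transcription factors Xbp1, Atf4 and Ddit3, and the target genes Hspa5, Dnajb9, Herpud1 and Trib3. They were chosen by name, with no measured value in the rule, from 21887 protein-coding genes, and all 10 were found in the gene annotation. For each gene, accessible regions (peaks) were counted from 25 kb before to 25 kb behind the gene, and each peak was classed by whether the other group had a peak on the same bases. Accessibility was measured by ATAC-seq, in which a transposase cuts and tags open DNA, in wild-type MIN6 cells, a line derived from a mouse insulinoma that serves as a model of beta cells. Besides an ATAC-seq kit, the labels list a Tecan kit made for mRNA-seq libraries, and what it was used for is not stated. Cells of both groups were transfected with Lipofectamine 3000 for 48 hours, either with the empty vector pcDNA 3 (4 libraries, described as biological replicates) or with the Klf4 expression plasmid pGloMyc-Klf4 (4 libraries likewise). The labels thus name a different plasmid for each group, and an effect of the plasmid itself cannot be told apart from one of Klf4, a Krüppel-like factor whose zinc fingers recognise CACCC and GC boxes. The study asked how Klf4 misexpression alters chromatin accessibility across the genome. Each group is represented by 1 merged peak list, so every value below is a single value per group, with no spread between replicates, no test, and no known read depth.

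The unfolded protein response is the answer of a cell to misfolded protein in the endoplasmic reticulum (ER). It starts from IRE1 (gene Ern1), which splices the Xbp1 messenger, from PERK (Eif2ak3), which phosphorylates eIF2alpha and so favours translation of Atf4, and from ATF6, which is cut in the Golgi to release a transcription factor. Beta cells load their ER heavily with proinsulin and depend on these pathways, and prolonged activation of the PERK branch raises CHOP (Ddit3), a factor tied to beta cell death.

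The promoter sequences of 4 of the genes are shown first, because they hold the elements through which this response and factors of the Klf type are known to bind DNA. They are RefSeq sequences of GRCm38.p6, the 250 bases before the annotated start of the gene. Capitals mark the ER stress response element (ERSE) in Hspa5, the second type of that element (ERSE-II) and the C/EBP-ATF response element (CARE) in Herpud1, GC boxes in Trib3, and GC boxes and CACCC boxes in Ern1, on either strand. The Hspa5 promoter is chr2:34771840-34772089, plus strand. That of Herpud1 is chr8:94386179-94386428, plus strand. The Trib3 sequence is chr2:152344061-152344310, minus strand, and that of Ern1 is chr11:106487797-106488046, minus strand.
Hspa5: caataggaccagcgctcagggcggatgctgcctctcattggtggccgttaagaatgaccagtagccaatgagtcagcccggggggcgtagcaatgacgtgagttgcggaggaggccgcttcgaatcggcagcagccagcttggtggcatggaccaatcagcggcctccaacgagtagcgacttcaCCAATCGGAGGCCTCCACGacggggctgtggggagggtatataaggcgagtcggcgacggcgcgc
Herpud1: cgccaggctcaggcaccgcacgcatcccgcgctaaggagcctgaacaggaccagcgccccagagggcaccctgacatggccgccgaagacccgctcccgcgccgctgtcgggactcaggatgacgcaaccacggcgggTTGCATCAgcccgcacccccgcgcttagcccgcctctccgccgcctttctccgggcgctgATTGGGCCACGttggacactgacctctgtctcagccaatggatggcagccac
Trib3: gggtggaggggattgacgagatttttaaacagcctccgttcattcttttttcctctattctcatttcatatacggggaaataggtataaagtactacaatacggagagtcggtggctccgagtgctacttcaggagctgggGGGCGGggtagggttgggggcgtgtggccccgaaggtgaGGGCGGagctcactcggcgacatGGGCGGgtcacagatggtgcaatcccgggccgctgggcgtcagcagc
Ern1: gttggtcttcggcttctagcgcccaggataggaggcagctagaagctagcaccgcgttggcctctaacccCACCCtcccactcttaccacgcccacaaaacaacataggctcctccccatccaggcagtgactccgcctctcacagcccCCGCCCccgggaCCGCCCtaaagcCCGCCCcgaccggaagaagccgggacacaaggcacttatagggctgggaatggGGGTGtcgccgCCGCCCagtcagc

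Motifs were searched on both strands of 300 bases, from 250 before to 50 after the start, in 32851 mouse promoters. Promoter entries were used for 9 of the 10 genes, all but Atf6. The ERSE, which is CCAAT, 9 bases of any kind (N) and CCACG, was in 1 of these 9, Hspa5 (bases -65 to -47), and in 0.119% of all promoters. ERSE-II, which is ATTGG, 1 base of any kind and CCACG, was in Herpud1 alone (bases -52 to -42) and in 0.0365% of all promoters. Herpud1 also held the only CARE, TTGCATCA (bases -112 to -105), which 0.895% of promoters have. The XBP1-type element TGACGTGG was in none of the 9 and in 0.676% of promoters. Of the letters bound by Klf-type factors, CACCC was in 6 of the 9 (57.5% of all promoters) and the GC box GGGCGG in 4 (35.7%), with 4 GC boxes each in Trib3 (3 of them in the printed bases) and Ern1. The CCAAT box, which overlaps the first letters of the ERSE, was in 6 of 9 promoters (37.4% of all), with 6 copies in Eif2ak3 and 4 in Hspa5. The core of the cAMP response element, TGACG, which also lies inside TGACGTGG, was in 5 of 9 (20.8% of all). Xbp1 held none of these motifs. All 44 motif matches in the 9 promoters lay wholly under the peak at the gene start in both lists. Except at Ern1 and Xbp1, those peaks spanned all of the searched bases, so this outcome was nearly fixed in advance. Some matches share bases, as the CCAAT box does with the ERSE. The 44 are matches of letters in a window and were not tied to binding of any factor.

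On chromosomes 1 to 19, X and Y the empty vector list held 100099 peaks covering 66.0 Mb and the Klf4 list 128538 peaks covering 84.2 Mb, a ratio of 1.28 in number. Because the lists differ in length, the main counts below are read against the same value over all peaks or all genes. As a check of the cell line, all 7 beta cell marker genes (Ins1, Ins2, Pdx1, Nkx6-1, Mafa, Slc2a2, Iapp) had peaks over the body and 1 kb on both sides in both lists, with 1193 to 2789 bp under empty vector peaks and 1730 to 2866 bp under Klf4 peaks. Markers of other cells were not free of peaks. The alpha cell marker Gcg had a peak in each list, covering 341 and 296 bp, and of the 3 acinar markers Ptf1a and Rbpjl had peaks in both lists while Cpa1 had none (0 to 1115 bp and 0 to 2124 bp). The fibroblast markers Col1a1 and Col1a2 had peaks covering 1567 to 2578 bp and 1881 to 2834 bp, and of the immune markers Ptprc had peaks in both lists and Cd3e in the Klf4 list (0 to 565 bp and 433 to 717 bp). The part of such cells in the results was not tested.

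Together the 10 windows, 852 kb in all, held 72 peaks (56810 bp) with the empty vector and 92 peaks with Klf4 (68766 bp). The number of peaks was thus 1.28 times as high with Klf4, the same ratio as in the whole lists, against 1.33 summed over the windows of all protein-coding genes. The covered length was 1.21 times as high, against 1.28 for the whole lists and 1.32 summed over those windows. A peak is called matched when a peak of the other list covers at least 1 bp of it, gained when it is in the Klf4 list without a match, and lost when it is in the empty vector list without a match. These are names for list membership and do not state a tested change. There were 61 matched peaks in each list, in 61 pairs, 31 gained and 11 lost peaks. Gained peaks made up 33.7% of the Klf4 peaks in the windows (95% Wilson interval 24.9 to 43.8%, counting error only), against 36.7% of all Klf4 peaks. Lost peaks made up 15.3% (interval 8.75 to 25.3%), against 18.8% of all empty vector peaks. Summed over the windows of all protein-coding genes, where a peak counts once for each window it falls in, the shares were 36.7% gained and 15.8% lost. Both shares of the 10 genes were near these. With only the 20000 strongest peaks of each list, few peaks were left in the windows, and 6 of 32 were gained (18.8%, against 12.7% of that list and 10.04% over all gene windows) and 1 of 27 lost (3.70%, against 12.7% and 9.68%). The cut lists were matched anew, so a peak whose partner fell below the cut counts as gained or lost. The peak at Gm11963 near Xbp1 counts as gained there, though the full empty vector list has a weak partner. The 1 lost peak, 106386890 to 106387622 near Ern1, has a partner in the full Klf4 list. Leaving out each gene in turn gave a gained share of 31.3% (without Herpud1) to 35.7% (without Xbp1) and a covered length ratio of 1.17 (without Trib3) to 1.26 (without Hspa5). Of the 10 genes, 9 had at least 1 gained peak and 5 at least 1 lost peak, against 82.1% and 56.4% of the 19286 protein-coding genes with a peak in either list. With the Klf4 list limited to its 100099 strongest peaks, so that both lists were equally long, the windows held 20 gained peaks (26.7%, against 30.3% of the whole list and 30.1% over all gene windows) and 17 lost peaks (23.6%, against 30.2% and 25.1%). Here the lost peaks include some with a partner in the full Klf4 list that was cut, such as 34777281 to 34779955 near Hspa5.

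**Figure D1:**
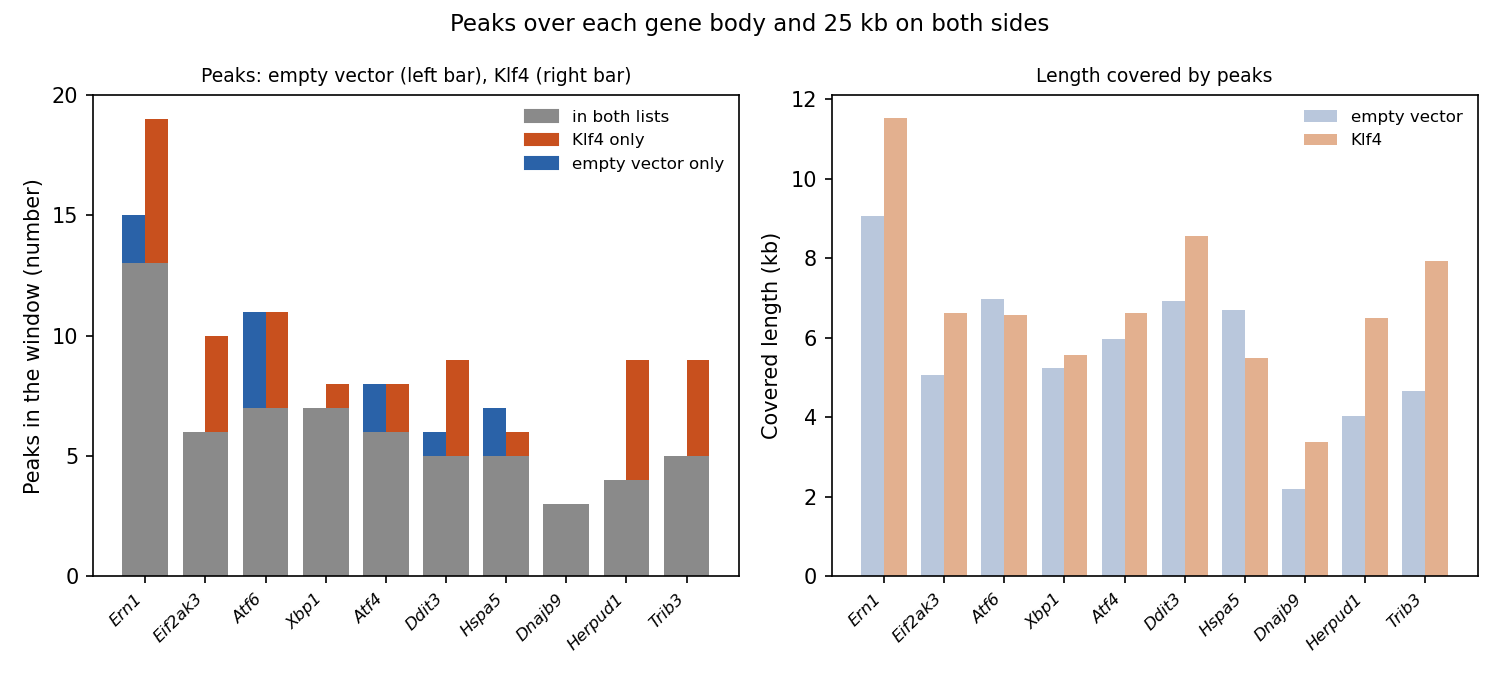
Number of peaks (left) and length covered by peaks in kb (right) from 25 kb before to 25 kb behind each gene, 1 value per merged list. The left bar of each pair is the empty vector and the right bar Klf4. Dnajb9 has 3 matched peaks in each list and no other, and Ern1 has the most peaks, 15 and 19.

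The gene with the most peaks was the sensor Ern1, which encodes the kinase and endonuclease IRE1 (chromosome 11, 106397620 to 106487796, 90.2 kb). Its window held 15 peaks (9061 bp) with the empty vector and 19 with Klf4 (11526 bp), of which 13 in each list were matched. The peak over its start, 106487287 to 106488023 with the empty vector and 106487272 to 106488053 with Klf4, had a −log10 q of 158 and 129.9. This q-value is the one the authors' peak caller gave, and it is read within a list only. Of the 6 gained peaks, 3 lay inside the gene, at 106443752 to 106443971, 106453832 to 106454105 and 106473078 to 106473484. The others were 106374563 to 106375377 at the start of Prr29, 106493418 to 106493609 before the Ern1 start, and 106511217 to 106511618 in Tex2, the strongest of all gained peaks here (−log10 q 31.2). Both lost peaks lay at or past the other end of the gene, at 106397633 to 106398088 in its last bases and 106381170 to 106382081 in Icam2.

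At Eif2ak3, which encodes the eIF2alpha kinase PERK (chromosome 6, 70844484 to 70905241), 6 peaks covering 5054 bp were found with the empty vector and 10 covering 6610 bp with Klf4. All 6 empty vector peaks were matched, so no peak was lost. Its start peak was the strongest of any member in the empty vector list (70843904 to 70844750, −log10 q 309.9) and the strongest of the member starts in the Klf4 list as well (70843880 to 70844972, 197). The 4 gained peaks sat on both sides of it, 2 before the start at 70832168 to 70832511 and 70838447 to 70838818, and 2 inside the gene at 70850100 to 70850332 and 70862667 to 70863047. They were 233 to 381 bp wide, with a −log10 q of 1.65 to 9.77.

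Atf6, the gene of the sensor that is itself a transcription factor precursor (chromosome 1, 170704457 to 170868585, 164 kb), was one of the 2 genes with less length covered in the Klf4 list. It had 11 peaks in each list, 7 of them matched, covering 6980 bp under empty vector peaks and 6568 bp under Klf4 peaks. Its strongest peak within the gene, 170741158 to 170741875 with the empty vector (−log10 q 170.4) and 170741170 to 170741985 with Klf4 (112), was matched, as was the wide peak over the higher-numbered gene end, 170867033 to 170869074 and 170867041 to 170869082, 2042 bp in each list. That peak inside the gene was the strongest of the window in the empty vector list. In the Klf4 list the strongest was the one at the start of the neighbouring Dusp12, 170884724 to 170885627 (130.1), matched to 170884935 to 170885768 (158) in the empty vector list. All 4 lost peaks were inside the gene, at 170705086 to 170705444, 170805956 to 170806399, 170843553 to 170843816 and 170844493 to 170844804. Of the 4 gained peaks, 170769806 to 170769975 and 170775760 to 170775926 were inside it and 170695069 to 170695343 and 170699950 to 170700345 beyond its lower-numbered end. Atf6 had 4 of the 11 lost peaks of the 10 genes, and without it the lost share was 11.5%. Its log2 ratio of covered length, -0.08, was above 0 under 4 of 9 alternative settings.

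Among the transcription factors, with all peaks and windows of 25 kb, Xbp1 differed least between the lists in covered length (chromosome 11, 5520641 to 5525993). With peaks at −log10 q ≥ 5, Ddit3 (0.24) and Atf4 (0.12) had lower log2 ratios of covered length than Xbp1 (0.33). All 7 of its empty vector peaks were matched, the Klf4 list added 1 weak peak at 5514130 to 5514330 (−log10 q 2.67), and the covered length was 5228 and 5574 bp. The start peak, 5520534 to 5522259 and 5520576 to 5522259, had a −log10 q of 106 and 97.1, and reached from base -107 in the one list and -65 in the other to base 1618 after the start in both. In both lists the strongest peak of the window was not this one but a peak in the neighbouring Ccdc117, 5541678 to 5542631 (116) with the empty vector and 5541558 to 5542557 (113) with Klf4. One matched pair stood out after the values were seen. The peak at -22.3 kb from the Xbp1 start, at the start of the non-coding gene Gm11963, was among the weakest of the empty vector list (5498162 to 5498566, −log10 q 1.32, with 2.13% of that list weaker) and in the upper part of the Klf4 list (5498041 to 5498651, 37.8, with 87.98% weaker). Positions in lists of unequal length do not measure a change, and this pair has no replicate values.

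Atf4, whose protein drives amino acid and redox genes when eIF2alpha is phosphorylated, is the shortest gene of the set (chromosome 15, 80255184 to 80257545). Each list had 8 peaks there, 6 of them matched, covering 5958 bp under empty vector peaks and 6617 bp under Klf4 peaks. The start peak was nearly the same stretch in both lists, 80254653 to 80256070 (−log10 q 178) and 80254646 to 80256080 (136), while the strongest peak of the window was at the start of Mief1, 80233605 to 80234488 (270.1) and 80233611 to 80234488 (231). The 2 gained peaks, 80239140 to 80239342 and 80247879 to 80248206, and the lost peak 80241626 to 80241810 all lay in Mief1. The other lost peak, 80280611 to 80281122, was on the far side of the gene.

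Ddit3 encodes CHOP (chromosome 10, 127290793 to 127296291) and lies in a gene-dense stretch between Mbd6 and Mars1. Its window had 6 peaks (6935 bp) with the empty vector and 9 with Klf4 (8558 bp), with 5 matched in each list. The start peak, 127288821 to 127291242 (−log10 q 128) and 127288856 to 127291242 (89.6), is the widest start peak of the 10 genes, 2422 and 2387 bp, and also covers the start of Mbd6, so the signal of both starts cannot be told apart. The 4 gained peaks were all inside neighbours: 127273433 to 127274934 in Dctn2, 127284967 to 127285271 in Mbd6, and 127299464 to 127300015 and 127305540 to 127305934 in Mars1. The first of these was 1502 bp wide with a −log10 q of 25.3. The lost peak, 127279879 to 127280082, was in Dctn2.

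Hspa5 encodes BiP, the main ER chaperone, and, with windows of 25 kb, had the lowest covered length with Klf4 relative to the empty vector (chromosome 2, 34772090 to 34776529). It had 7 peaks (6696 bp) with the empty vector and 6 peaks with Klf4 (5501 bp), and 5 in each were matched. Its start peak, the one holding the ERSE printed above, was 34771491 to 34772633 (−log10 q 241) and 34771464 to 34772576 (196), and was the strongest of its window in both lists. Most of the difference in length lay elsewhere. A broad weak peak in the neighbouring Rabepk was 34777281 to 34779955 (2675 bp, −log10 q 1.91) and 34778007 to 34779955 (1949 bp, 3.20), and the lost peaks 34763005 to 34763192 and 34792409 to 34792932 had a −log10 q of 1.58 and 1.97. The gained peak, 34782073 to 34782350, was as weak (1.48). The log2 ratio of covered length at Hspa5 was -0.26 with all peaks, -0.013 with peaks at −log10 q ≥ 5, 0.18 with the 20000 strongest peaks of each list and -0.93 with lists of equal length. Of the matched peak at the Rabepk start, 34799514 to 34800042 (28.1) and 34799499 to 34799991 (32.8), only the Klf4 side is among the 20000 strongest of its list. Shortening the Klf4 list to equal length removed the Klf4 side of the broad Rabepk peak (1949 bp) and the gained peak. The empty vector side of the broad peak (2675 bp) stayed, because that list was not shortened. The -0.93 thus rests on weak peaks near the cut.

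Dnajb9, the gene of the BiP cochaperone ERdj4 (chromosome 12, 44205897 to 44210068), was the only one with neither a gained nor a lost peak. Its 3 peaks overlapped between the lists, and the covered length was 2206 bp under empty vector peaks and 3371 bp under Klf4 peaks. Most of the difference came from 1 peak, 44227850 to 44228027 (178 bp) with the empty vector and 44227866 to 44228959 (1094 bp) with Klf4. The start peak was 44209333 to 44210646 (−log10 q 229.5) and 44209196 to 44210684 (164).

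Herpud1, whose product acts in ER-associated degradation, had the most gained peaks for the length of its window (chromosome 8, 94386429 to 94395371). All 4 empty vector peaks were matched (4043 bp), and the Klf4 list had 9 peaks covering 6502 bp, 5 of them gained. The start peak, holding ERSE-II and the CARE, was 94385891 to 94387822 (−log10 q 101) and 94385882 to 94387862 (87.2), the strongest of its window in both lists. Matched peaks covered 4043 and 3964 bp, so the added length was all in gained peaks. Of these, 4 lay before the gene, 94362181 to 94363504, 94365510 to 94365847, 94367957 to 94368172 and 94375433 to 94375747, and 1 behind it, 94413915 to 94414259. They were weak, with a −log10 q of 1.79 to 6.52. With windows of 10 kb the log2 ratio at Herpud1 was -0.0085, against 0.62 with 25 kb.

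Trib3 encodes a pseudokinase induced by ATF4 and CHOP (chromosome 2, 152337425 to 152344060) and, with windows of 25 kb, had the highest covered length with Klf4 relative to the empty vector. It had 5 peaks (4649 bp) with the empty vector, all matched, and 9 peaks with Klf4 (7939 bp), 4 of them gained. The start peak, holding the GC boxes printed above, was nearly identical, 152343314 to 152344586 (−log10 q 114) and 152343299 to 152344602 (98.6). The strongest peak of the window in both lists was at the start of Rbck1, 152331961 to 152333064 (178) and 152331989 to 152333064 (133). There were 3 gained peaks in a row within Rbck1, 152315959 to 152316819, 152321649 to 152322559 and 152323613 to 152324452, and the fourth, 152360311 to 152360808, was in the non-coding gene Gm14164. The second of them had a −log10 q of 29.5, which 84.8% of the Klf4 list did not reach. The log2 ratio at Trib3 depended on the window: it was 0.71 with 25 kb, 0.55 with 50 kb, 0.089 with 10 kb and 0.017 in the gene body.

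**Figure D2:**
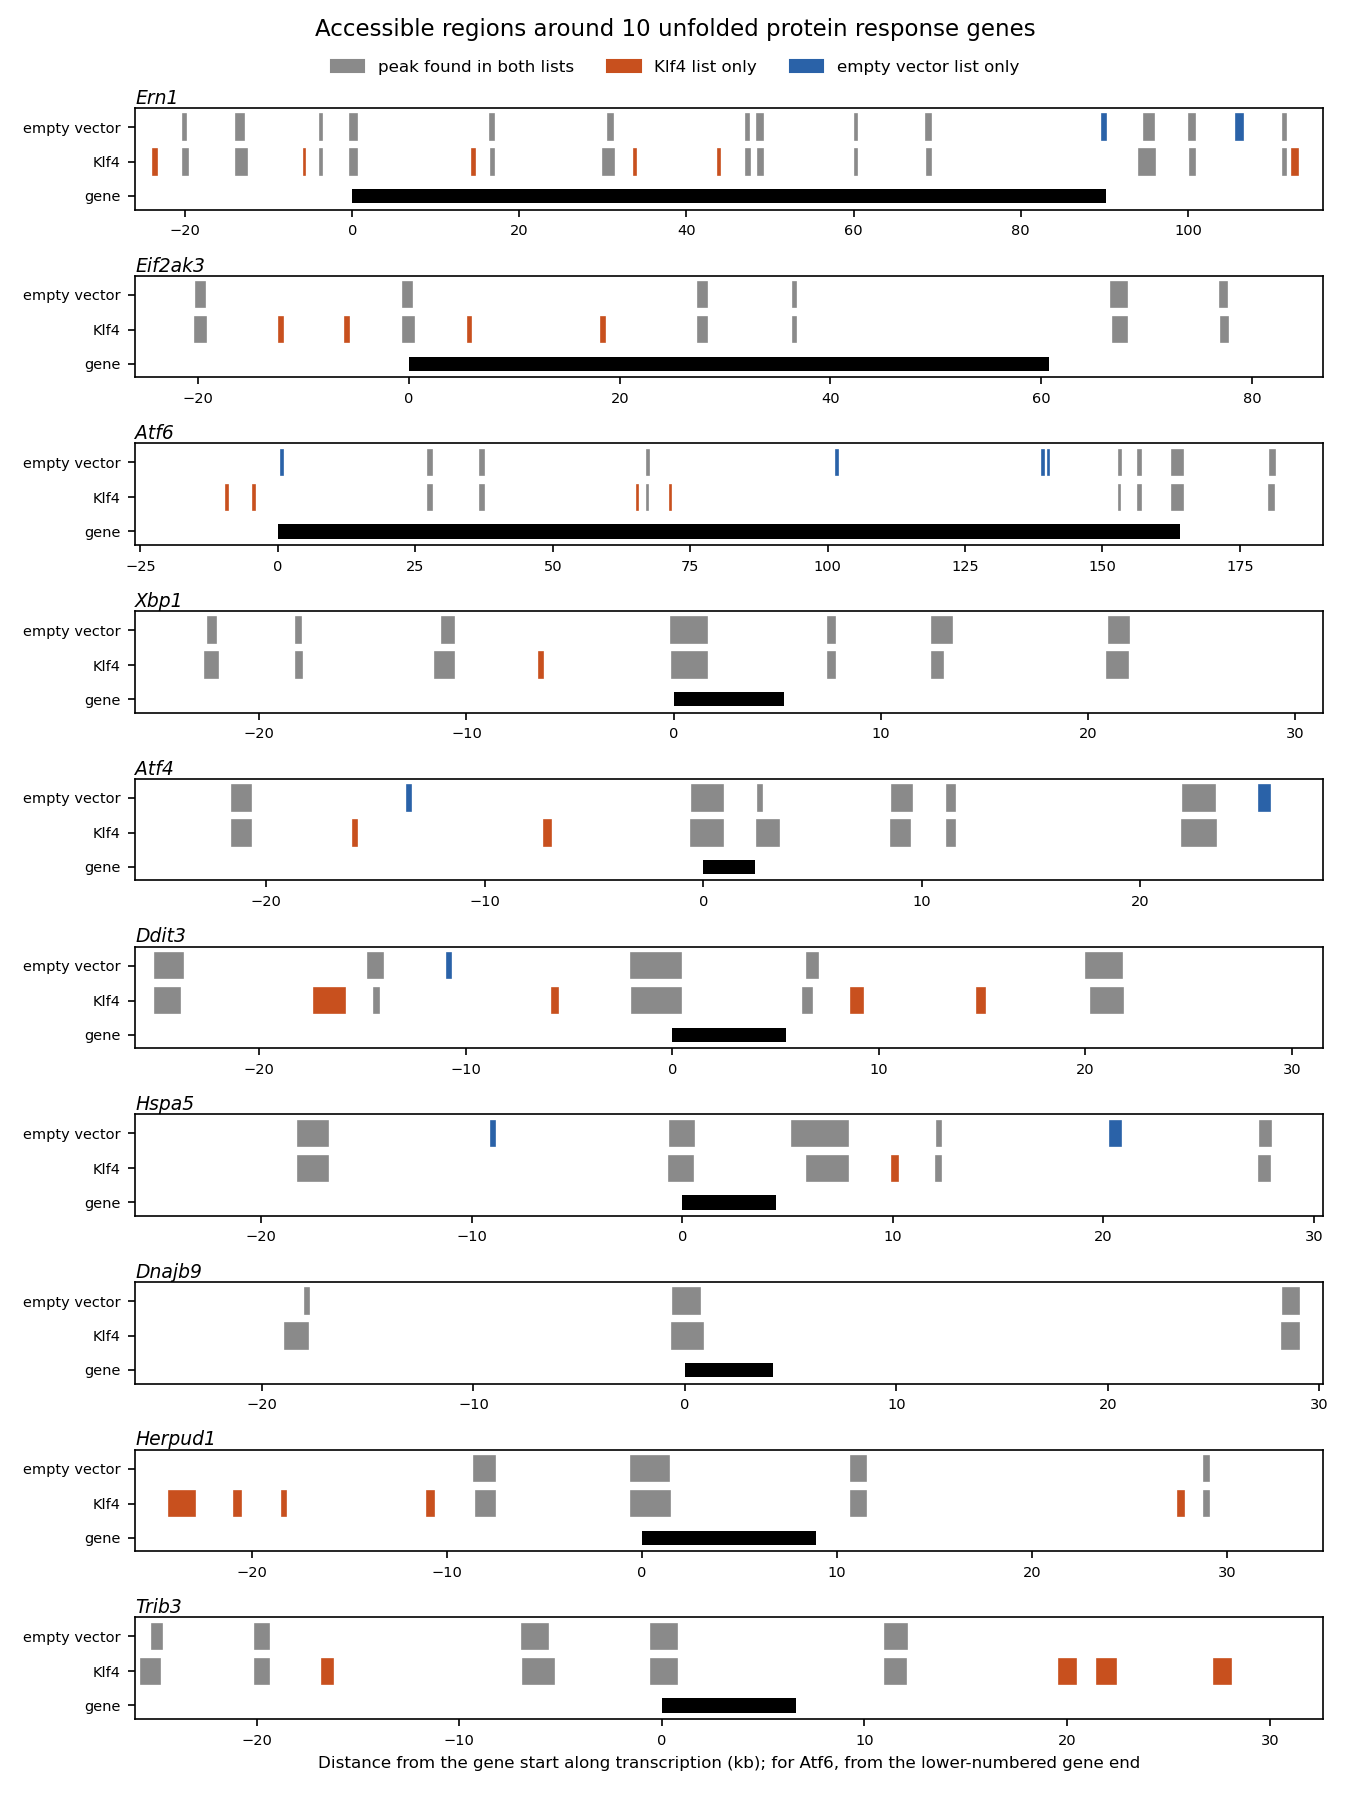
Peaks of both lists from 25 kb before to 25 kb behind each gene, drawn to scale against the distance in kb from the gene start (for Atf6 from its lower-numbered end). A thin outline keeps narrow peaks visible. Grey peaks are in both lists, orange ones in the Klf4 list only and blue ones in the empty vector list only, and every start except that of Atf6, which is not marked, carries a grey peak in both rows.

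The lists differed least at the gene starts. All 9 genes with an annotated start had it under a peak of both lists, against 58.7% of 17492 protein-coding genes. With the Atf6 end peak counted in, these 10 matched pairs covered nearly the same bases. Widths at the 9 starts ran from 737 to 2422 bp with the empty vector and from 782 to 2387 bp with Klf4. Limiting the comparison to peaks within 1 kb of a start (for Atf6, of either gene end) gave a covered length ratio of 1.01. That ratio also counts the lost Atf6 peak at the lower-numbered gene end (359 bp), which has no Klf4 partner and lowers it. No gained or lost peak lay over an annotated start of the 9 genes, where 8.47% of Klf4 peaks and 0.584% of empty vector peaks over any protein-coding start are gained or lost. The start peaks were strong within their lists. Between 94.1% (Herpud1) and 99.7% (Eif2ak3) of all empty vector peaks were weaker, and between 95.7% and 99.5% of all Klf4 peaks. Among peaks over a protein-coding gene start only, 63.7% (Herpud1) to 98.4% (Eif2ak3) of the empty vector list and 68.8% (Herpud1) to 96.3% (Eif2ak3) of the Klf4 list were weaker, so the 9 starts all lay above the middle of that group. The GC content of the 9 promoters ran from 51.0% (Xbp1) to 68.3% (Herpud1), with a median of 52.7% over all promoters. The part of GC content in the strength of these peaks was not tested.

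Away from the starts the windows were mixed. Of the Klf4 peaks other than the matched start pairs, 31 of 82 were gained (37.8%, interval 28.1 to 48.6%), against 39.4% of all Klf4 peaks not over a protein-coding start. For the empty vector 11 of 62 were lost (17.7%, interval 10.2 to 29.0%), against 20.8%. Gained peaks were narrower and weaker (medians 344 bp, −log10 q 4.28) than matched Klf4 peaks away from the starts (766 bp, 16.2). For lost peaks the medians were 359 bp and 3.64, and 702 bp and 19.2 for their matched counterparts. The weakness of unmatched peaks is a property of the whole lists, where gained peaks have a median −log10 q of 4.75 and lost ones of 2.63. Of the 31 gained peaks 17 had a −log10 q under 5 and 3 reached 20 (9.68%, against 4.31% of all gained peaks), those in Tex2 near Ern1, in Rbck1 near Trib3 and in Dctn2 near Ddit3. None of the 11 lost peaks reached 20. By place, 7 gained peaks lay in a member gene (Ern1, Eif2ak3 and Atf6, the 3 long genes), 15 in a neighbouring gene and 9 in no annotated gene. Of the lost peaks 5 lay in a member gene, 4 in a neighbour and 2 in none. The distance from a gained peak to the nearest empty vector peak was 648 to 15142 bp, with a median of 3825 bp, and that from a lost peak to the nearest Klf4 peak 1944 to 30030 bp, with a median of 4741 bp.

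**Figure D3:**
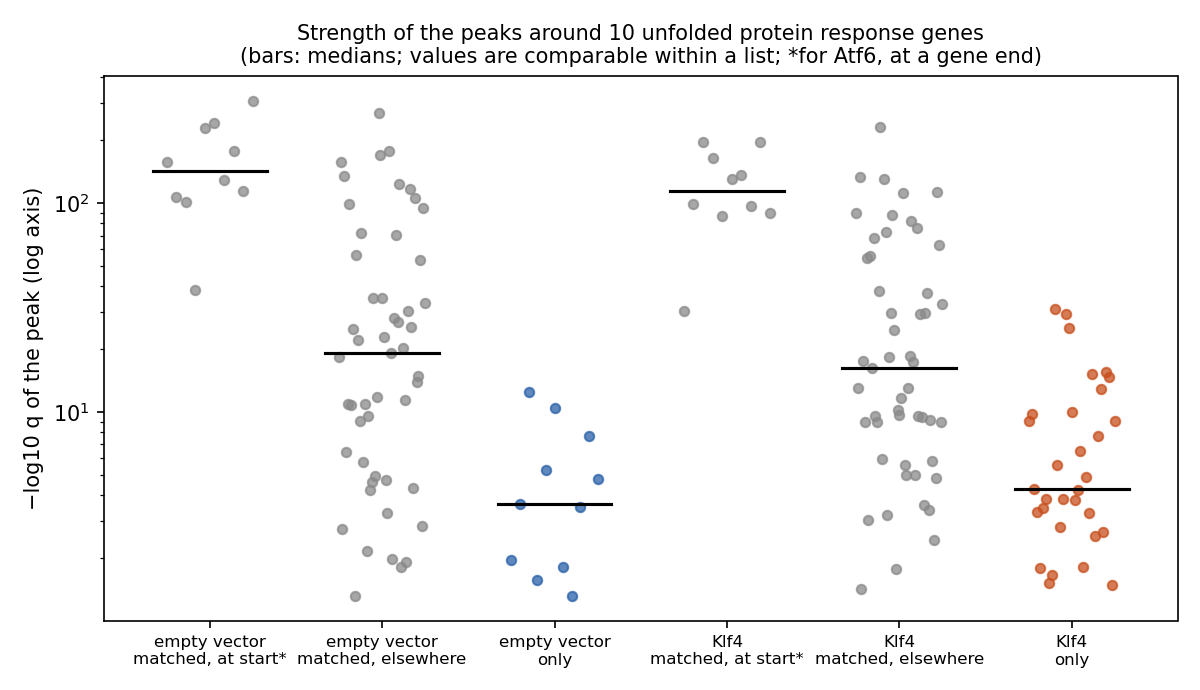
The −log10 q of each peak around the 10 genes on a log axis, by list and by whether the peak is matched at a start (for Atf6, at a gene end), matched elsewhere or found in 1 list only. Bars are medians, and values compare within a list. Klf4-only peaks have a median of 4.28 and reach 31.2, while the start peaks other than that of Atf6 are at 87.2 or above.

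The 61 matched pairs gave little of the difference in covered length. They covered 52450 bp under empty vector peaks and 54706 bp under Klf4 peaks, gained peaks added 14060 bp and lost peaks took away 4360 bp. The Klf4 peak was the wider of the pair in 31 cases, the narrower in 28 and equal in 2, which is 50.8% wider against 46.9% of 79834 one-to-one pairs genome-wide. Past 1.5 times the width there were 7 wider and 2 narrower pairs (11.5% and 3.28%, against 13.8% and 12.3% of all pairs), none of them at a start. The largest differences were at the peak near Dnajb9 given above (6.15 times as wide with Klf4), a peak just past the end of Atf4 (205 and 989 bp, 4.82 times), and a peak in Dctn2 near Ddit3 that was narrower with Klf4 (712 and 240 bp, 0.337 times).

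Per gene, the log2 ratio of covered length, Klf4 over empty vector, was taken after adding 500 bp to each length, which keeps genes with little coverage from giving extreme values. It was higher with Klf4 at 8 of the 10 genes and lower at 2, against 77.0% higher among all genes with a peak. In order, the log2 ratios were 0.71 at Trib3, 0.62 at Herpud1, 0.52 at Dnajb9, 0.36 at Eif2ak3, 0.33 at Ern1, 0.28 at Ddit3, 0.14 at Atf4, 0.08 at Xbp1, -0.08 at Atf6 and -0.26 at Hspa5. With 1 value per group the order has no estimate of error, so neighbours in it cannot be told apart. The order also moved with the settings: Ddit3 was highest with windows of 10 kb (0.41), Herpud1 with 50 kb (0.72), Eif2ak3 in gene bodies (0.54) and with the 20000 strongest peaks (0.65), and Dnajb9 with peaks at −log10 q ≥ 5 (0.61). None of the 10 reached a fold of 2 in either direction, where 9.05% of all genes were at least 2-fold higher and 0.285% at least 2-fold lower. The median over the 10 genes was 0.31, beside 0.28 over all 19286 genes. Even Trib3 was not extreme, with 81.3% of all genes lower, while 6.55% of genes were lower than Hspa5. By role, the targets Hspa5, Dnajb9, Herpud1 and Trib3 had 10 gained peaks (37.0% of their Klf4 peaks) and 2 lost (10.5% of their empty vector peaks), with a median log2 ratio of 0.57. The sensors had 14 (35.0%) and 6 (18.8%) with a median of 0.33, and the transcription factors 7 (28.0%) and 3 (14.3%) with a median of 0.14. These shares stand beside 36.7% gained and 15.8% lost over all gene windows. The target genes thus held both the highest and the lowest ratio of the set. The excess over the empty vector lay mainly in the flanks: in the gene bodies alone the median was 0.014, beside 0.15 over all genes, with 7 of 30 peaks gained (23.3%) and 5 of 28 lost (17.9%), against 35.0% and 16.7% summed over all protein-coding gene bodies. Except at Ern1, Eif2ak3 and Atf6, the matched start peak was the only peak touching the gene body, so this median mostly repeats the start peaks. The body ratios were 0.28 at Ern1, 0.54 at Eif2ak3 and -0.30 at Atf6.

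A wider list of 48 genes of the same pathways was set beside the 10, all of them found in the annotation, 2 by an older name. With the same windows they had 347 empty vector and 434 Klf4 peaks, 134 gained (30.9%, against 36.7% over all gene windows) and 47 lost (13.5%, against 15.8% over all gene windows). Of the 48, 36 had higher covered length with Klf4 (75%, against 77.0% of all genes) and 12 lower. None was past a fold of 2, where 9.05% of all genes were higher and 0.285% lower, and the median log2 ratio was 0.20. The 15 genes of ER chaperones and folding enzymes were split, with 8 higher, 7 lower and a median of 0.05. They held both the highest 2 and the lowest 2 of the list. Creld2 (0.75, from 4817 to 8422 bp) and the disulfide isomerase gene Pdia6 (0.61, from 4992 to 7889 bp) were highest. Hyou1, an ER chaperone of the Hsp70 family (-0.24, from 8109 to 6814 bp), and the disulfide isomerase gene Pdia3 (-0.21, from 7101 to 6060 bp) were lowest. The 8 genes of ER-associated degradation were all higher, with a median of 0.27, and the 14 genes of the PERK and integrated stress response arm were higher in 12 cases with a median of 0.21. The 3 ATF6 arm genes were all higher (median 0.27), the 4 IRE1 arm genes were split 2 and 2 (median 0.17), and of 4 genes tied to ER stress in beta cells 3 were higher (median 0.30), among them Wfs1 with 9 peaks with the empty vector and 15 with Klf4. Each group median lay within the middle 50% of all genes, which ran from 0.02 to 0.60.

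**Figure D4:**
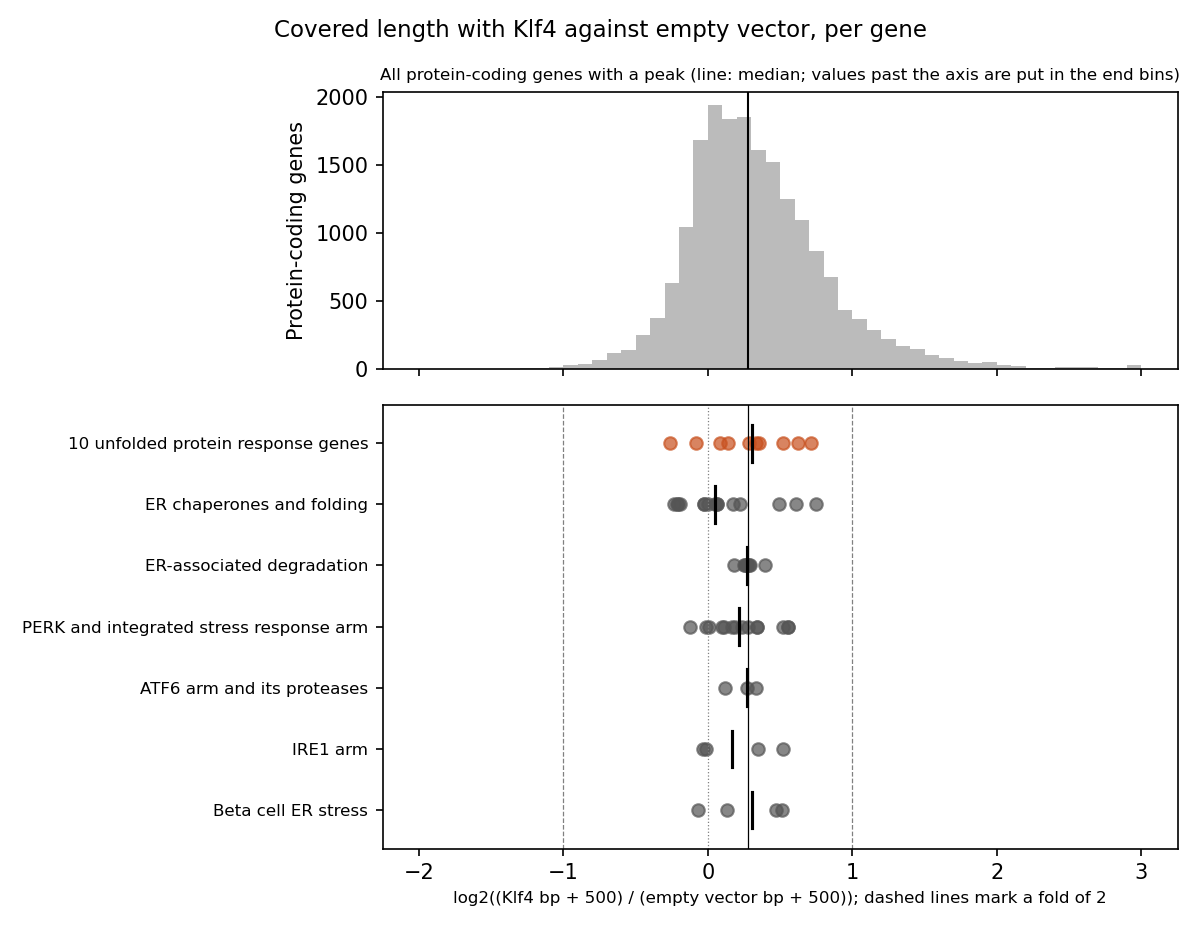
Log2 ratio of covered length, Klf4 over empty vector, per gene. The upper panel is the distribution over all 19286 protein-coding genes with a peak, and the lower panel shows the 10 genes (orange) and 48 further pathway genes by role, with a bar at each median and dashed lines at a fold of 2. All of these genes lie between the dashed lines, and the median of the 10 genes (0.31) is next to that of all genes (0.28).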

How the data were processed

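ATAC-seq libraries of MIN6 cells, 4 per plasmid, were grouped by their titles. Per the submitters' processing notes, the tools were FastQC, Bowtie2, MACS2 and DiffBind and the build mm10; versions, read filters and peak options are not given in the sources used here. The authors deposited 1 merged broad peak list per group, with a fold enrichment (a ratio to local background), −log10 p and −log10 q for each peak, and a display score that was not used. The −log10 p was used only to pick the 20000 strongest peaks as an alternative. Whether libraries were pooled before or after calling is not stated. Read depth is unknown; it bears on how many weak peaks a caller finds, and the lists differ in length.

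Peaks on chromosomes 1 to 19, X and Y were overlapped with gene windows of the GRCm38.p6 RefSeq table, the same assembly as mm10. A peak that crossed a window edge was counted and its bases inside the window were summed. Gene starts, strands and sequences came from the RefSeq promoter table. "At the start" means within 1 kb. Wilson intervals are at 95%. Members and lists were chosen with earlier results of these data known. Named peaks are the start peak, the strongest peak and every gained and lost peak of a window, and named further genes are the 2 highest and 2 lowest; Wfs1, the broad peak near Hspa5 and the pairs of unequal width or standing were chosen after their values were seen. In simulated lists 200 of 200 removed peaks were found, and 0 of 200 windows differed from base-by-base counting. Some members of the marker and pathway lists are not reported here by name. Software was matplotlib 3.10.9, scipy 1.17.1, pandas 2.3.3, numpy 2.4.6 and Python 3.11.15.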

Additional observations from a re-analysis of the deposited data

How the results depend on the processing

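No paired analysis was possible because each group comes as a single merged list, and for that reason the fits with a replicate block and without each replicate were not run. The limits for a move were the 95% interval of a share or number ratio, 0.1 for a log2 ratio and 5% for a ratio of total covered length. Of 87 summary values under alternatives 61 stayed within their limits and 26 moved. The 87 include counts of genes past a fold of 2, all 0 in the main setting, where any other count was a move. Many of the 61 are such counts staying at 0. The interval of the number ratio was wide (0.94 to 1.74). The tally thus says little about covered length. The median log2 ratio of the member genes stayed only with windows of 50 kb, −log10 q ≥ 5 or 100 bp added. Their total covered length ratio stayed only at −log10 q ≥ 5 or with 100 bp added. Of 90 values of single genes 57 moved by over 0.1, and Atf4, Atf6, Ddit3, Ern1, Herpud1, Hspa5 and Xbp1 changed sign under 1 to 4 settings, while Dnajb9, Eif2ak3 and Trib3 kept theirs.

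The median log2 ratio of the 10 genes was 0.11 with windows of 10 kb, 0.014 in gene bodies alone, 0.096 with the top 20000 peaks, 0.14 with peaks of at least 500 bp, 0.019 with peaks within 1 kb of a start and 0.14 with lists of equal length. Over all genes it was 0.23, 0.15, 0.01, 0.24 and 0.12 for these settings without the one at starts. The total covered length ratio was 1.11 with windows of 10 kb, 1.32 with 50 kb, 1.05 in gene bodies, 1.12 with the top 20000 peaks, 1.13 with peaks of at least 500 bp, 1.01 at starts (with the lost Atf6 end peak counted) and 1.08 with lists of equal length. The gained share was 23.3% in gene bodies (35.0% over all gene bodies), 18.8% with the top 20000 peaks (12.7% of all these peaks, and 10.04% over all gene windows), 22.0% with peaks of at least 500 bp (34.1%, and 32.9% over all gene windows), and 21.2% for peaks at −log10 q ≥ 5 matched against the whole other list (26.8%). The lost share was 3.70% with the top 20000 peaks (12.7%, and 9.68% over all gene windows) and 7.69% with the last of these (5.09%), so with the top 20000 peaks the gained share lay above and the lost share below that of all peaks. In that setting peaks with a partner below the cut count as gained or lost. Its shares thus do not show how many strong peaks lack a partner in the full other list. For the 48 further genes the median was 0.098 in gene bodies, 0.094 at −log10 q ≥ 5, 0.029 with the top 20000 peaks and 0.019 with lists of equal length. The number at least 2-fold higher was 2 in gene bodies, 1 at −log10 q ≥ 5 and 1 with the top 20000 peaks. The share of all genes past this fold was not taken under these settings, so the counts have nothing to be read against. The cause was not tested. Equal list lengths and matching against the whole other list were chosen after seeing the data.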
